A study of Mus musculus with 7 samples.

Results

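H3K27ac was followed around 10 transcription factor genes that specify mesoderm, endoderm, trophoblast or muscle, while NeuroD1 was induced in mouse embryonic stem cells. The genes were Gata4, Gata6, Sox17, Foxa2, Eomes, Mixl1, Gsc, Cdx2, Hand1 and Myod1. A peak was taken as belonging to a gene when it overlapped the gene body or the 10 kb on either side of it. By this rule 8 of the 66841 merged peaks were found, in 5 of the 10 genes: 3 at Gata4, 2 at Eomes and 1 each at Gsc, Cdx2 and Hand1. Gata6, Sox17, Foxa2, Mixl1 and Myod1 had no merged peak in the window.

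The cells, labelled A2Lox, were a mouse embryonic stem cell line that carries NeuroD1 under doxycycline control and that the methods of the study call A2lox-NeuroD1, grown away from feeder cells for the experiments. Uninduced cells (0 h, no doxycycline) were compared with cells given 500 ng per ml of doxycycline for 12 h or 48 h, in 2 replicates (R1 and R2) per time point, 6 libraries in all. Uninduced cells are the same line, and no arm with doxycycline but without the transgene was analysed here. Nothing in the labels says whether R1 and R2 were separate cultures, so p-values measure the spread between these libraries, which may be technical.

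The genes act in lineages other than the neuronal one. Gata4, Gata6, Sox17 and Foxa2 are regulators of endoderm, with Gata4 and Gata6 also used in the heart. Eomes, Mixl1 and Gsc act in the primitive streak and in the mesendoderm that arises from it, and Eomes also in trophoblast. Cdx2 specifies trophectoderm and later the posterior gut, Hand1 acts in trophoblast giant cells, lateral mesoderm and heart, and Myod1 starts the muscle programme and, like NeuroD1, is a basic helix-loop-helix factor that binds E-boxes. In embryonic stem cells many such genes have CpG-rich promoters held by Polycomb proteins with H3K27me3, a mark on the same lysine that acetylation would occupy. H3K27ac marks active promoters and enhancers.

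Sequences of 3 of the peaks are shown, because all 5 peaks inside genes were GC-rich, 4 of them over a coding exon, and the downstream peak of Hand1 was neither. Each is read on the forward strand of mm10, 300 bp long, from the whole Cdx2 peak and from the centre of the other 2 peaks. Capitals mark E-boxes (CANNTG, which reads the same on both strands), the kind of site that NeuroD1 binds.
Cdx2 promoter peak, chr5:147306382-147306681: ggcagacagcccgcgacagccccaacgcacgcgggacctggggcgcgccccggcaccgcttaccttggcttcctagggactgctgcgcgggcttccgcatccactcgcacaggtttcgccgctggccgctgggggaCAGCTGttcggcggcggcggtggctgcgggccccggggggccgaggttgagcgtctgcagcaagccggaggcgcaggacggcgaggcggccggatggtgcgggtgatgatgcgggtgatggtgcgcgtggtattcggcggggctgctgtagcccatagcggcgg
Gata4 coding exon peak, chr14:63240640-63240939: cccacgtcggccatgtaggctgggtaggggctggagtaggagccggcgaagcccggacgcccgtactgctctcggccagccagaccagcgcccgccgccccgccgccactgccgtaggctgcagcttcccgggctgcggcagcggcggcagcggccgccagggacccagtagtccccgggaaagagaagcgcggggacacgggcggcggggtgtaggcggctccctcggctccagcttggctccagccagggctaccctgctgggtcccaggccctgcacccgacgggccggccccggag
Hand1 downstream peak, chr11:57820288-57820587: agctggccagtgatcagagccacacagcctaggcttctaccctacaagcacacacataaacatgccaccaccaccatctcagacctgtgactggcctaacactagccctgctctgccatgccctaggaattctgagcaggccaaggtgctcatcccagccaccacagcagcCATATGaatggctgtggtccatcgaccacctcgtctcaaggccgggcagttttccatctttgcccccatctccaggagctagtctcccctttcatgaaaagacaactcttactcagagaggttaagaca
The Cdx2 stretch held 1 E-box, CAGCTG at base 137, and the Hand1 stretch held 1, CATATG at base 172, counted from the left end. The Gata4 stretch held none. Of the central 300 bp of 58252 merged peaks of at least that width, 74.7% held at least 1 E-box, 16.2% held CAGCTG and 3.49% held CATATG. CpG dinucleotides numbered 38 in the Cdx2 stretch, 32 in the Gata4 stretch and 3 in the Hand1 stretch. A match of these letters is a description of the sequence and not a binding site.

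Peaks were missing from a larger share of these genes than of all genes, a difference that was not tested. Of 21951 protein-coding genes, 5776 (26.3%) had no merged peak within 10 kb, against 5 of the 10 genes here. A peak within 2 kb of a transcription start site (TSS), called a promoter peak, was found for 13152 genes (59.9%) and for 3 of the 10, namely Eomes, Gsc and Cdx2. The merged table lists only regions that passed the authors' peak calling in at least 1 sample, so a gene without a peak was not called, and a weaker signal there cannot be read from the table.

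For the genes without a peak, the nearest merged peaks lay far away. The closest to Sox17 was 62155 bp upstream, with 191 and 187 reads before induction, 133 and 162 after 12 h and 97 and 132 after 48 h. The 48 h pair was lower than the 0 h pair there, and the log2 fold change at 48 h vs 0 h was -0.83 ± 0.21 (SE), with an edgeR adjusted p of 0.0087. The peak nearest to Foxa2, 123670 bp downstream, went from 22 and 37 reads before induction to 20 and 24 after 12 h and 11 and 11 after 48 h, and its log2 fold change at 48 h vs 0 h was -1.52 ± 0.41 (SE), adjusted p 0.014. For these 2 peaks the nearest TSS was that of Sox17 and of Foxa2, and both peaks lost acetylation at 48 h vs 0 h. Of all merged peaks 14.0% were called in that comparison, in either direction. On the other side of Sox17 the nearest peak, 338010 bp downstream, gained acetylation at 48 h vs 0 h (1.47 ± 0.25, adjusted p 0.00018). The peak on the other side of Foxa2, 413214 bp upstream, was not called there (-0.61 ± 0.26, adjusted p 0.12). Gata6 had its nearest peak 100082 bp downstream, with 38 and 47 reads before induction, 26 and 30 after 12 h and 18 and 40 after 48 h. The 48 h pair overlapped the 0 h pair in that peak. No comparison passed the threshold there (adjusted p 0.16 for 12 h vs 0 h and 0.18 for 48 h vs 0 h). The peak on the other side of Gata6, 169467 bp upstream, lost acetylation at 48 h vs 0 h (-0.79 ± 0.23, adjusted p 0.025).

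Of these genes Myod1 stood furthest from any peak, with the nearest 193372 bp downstream. That peak held 11 and 8 reads before induction, 34 and 32 after 12 h and 87 and 62 after 48 h, so the time points did not overlap. Its log2 fold change at 48 h vs 0 h was 2.89 ± 0.38 (SE), with an edgeR adjusted p of 1.1e-05. The nearest TSS to it, 65995 bp away, was that of Sergef and not of Myod1. The peaks nearest to Mixl1 on either side were the promoters of its neighbours Acbd3 (27926 bp upstream) and Lin9 (50565 bp downstream). Whether any of these distant peaks acts on the gene it was measured from was not tested.

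Among the peaks that were present, most were weak and narrow. Reads per peak, averaged over the 6 libraries, were 6.33 at Cdx2, 9.67 at the Gata4 coding exon, 15.8 at Gsc, 18.3 at Hand1, 19 at the Gata4 intron, 27.3 at the Eomes promoter, 53.3 downstream of Eomes and 200.0 downstream of Gata4. The median over all merged peaks was 30.5 reads, and over promoter peaks 107 reads, so that 6 of the 8 lay below the median peak. Counts were scaled to the mean library total, and the mean scaled count was divided by peak width to compare peaks with each other. On that scale the Cdx2 peak (20.7 scaled reads per kb) was above 1.44% of all peaks and the Gata4 coding exon peak (23.4) above 3.41%. Gsc (32.6) was above 19.6%, the Gata4 intron peak (38.7) above 35.7%, the Eomes downstream peak (44.9) above 50.1%, the Hand1 peak (47.6) above 55.1% and the Eomes promoter peak (54.7) above 64.8%. The remaining one, downstream of Gata4 (112 scaled reads per kb), was above 90.3% of all peaks. That peak lies 4312 bp beyond the 3' end of Gata4 and covers the TSS of Neil2, a DNA glycosylase gene, so it is the Neil2 promoter that gave the one strong signal in the set.

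**Figure D1:**
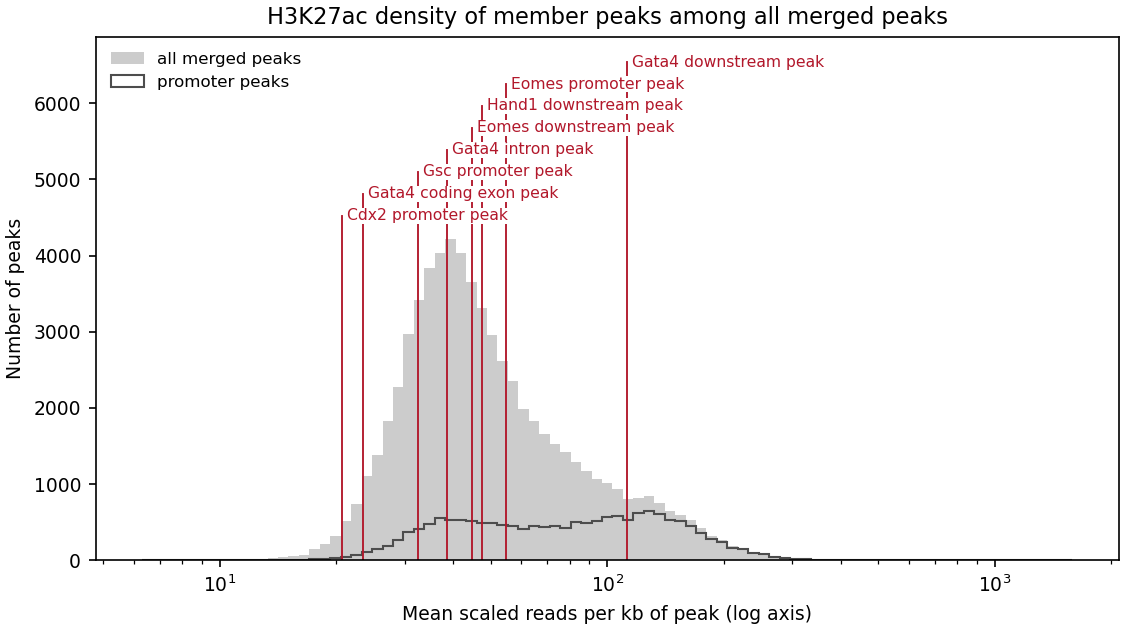
Histogram of the mean scaled reads per kb of peak (log axis) over all 66841 merged peaks in grey and over promoter peaks as a dark outline, with red lines at the 8 peaks of the lineage regulators. The Cdx2 and Gata4 coding exon peaks sit in the lower tail, and the peak downstream of Gata4, at the Neil2 promoter, lies alone in the upper part of the distribution.

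Base composition set 5 of the 8 peaks apart from the other 3. GC content was 74.6% at the Gata4 coding exon, 68.5% at the Gata4 intron, 75.1% at the Eomes promoter, 74.2% at Gsc and 73.3% at Cdx2, where 2.54% of all merged peaks reach 68%. Their CpG observed-to-expected ratio ran from 0.69 to 1.00, against a median of 0.28 over all peaks. The peaks outside the genes had 53.1% GC (downstream of Gata4), 50.8% (Eomes) and 53.6% (Hand1), close to the median of 50.2%. By annotation 4 of the 8 peaks overlapped a coding exon, including all 3 promoter peaks, which lay 414 bp (Eomes), 126 bp (Gsc, where the peak also reached the UTR) and 589 bp (Cdx2) from the TSS inside the gene. Width was at most 600 bp in 6 of the 8, compared with 44.9% of all peaks.

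E-boxes numbered 21 in the 5593 bp of the 8 peaks, 3.75 per kb, against 5.13 per kb over all merged peaks. The neuronal form CAGATG was found, on either strand, in 1 of the 8 peaks, the one downstream of Eomes, whereas 43.8% of all peaks held it. CAGCTG, which myogenic factors are known to bind, was in 4 of the 8 and in 38.4% of all peaks. These shares depend on peak width, and the peaks here were narrow.

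Induction of NeuroD1 for 12 h gave 1 call among the 8 peaks, at Cdx2, and 48 h gave none. Calls were made with edgeR's quasi-likelihood test over all 66841 peaks at a Benjamini-Hochberg adjusted p under 0.05. For 12 h vs 0 h 1 of 8 passed, where 16.0% of all merged peaks did. The count was 0 of 8 for 48 h vs 0 h, where 14.0% of all passed, and 0 of 8 for 48 h vs 12 h, where 19.1% passed. The unadjusted edgeR p was under 0.05 for 2, 1 and 1 of the 8 in these comparisons. DESeq2 called 0 in each, but gave no adjusted p for 3, 1 and 5 of the 8. The median log2 fold change of the 8 was 0.03 (12 h vs 0 h), -0.31 (48 h vs 0 h) and -0.28 (48 h vs 12 h), against medians over all peaks of -0.08, -0.04 and -0.03. A set of 8 is too small to tell 0 or 1 call from these background shares.

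**Figure D2:**
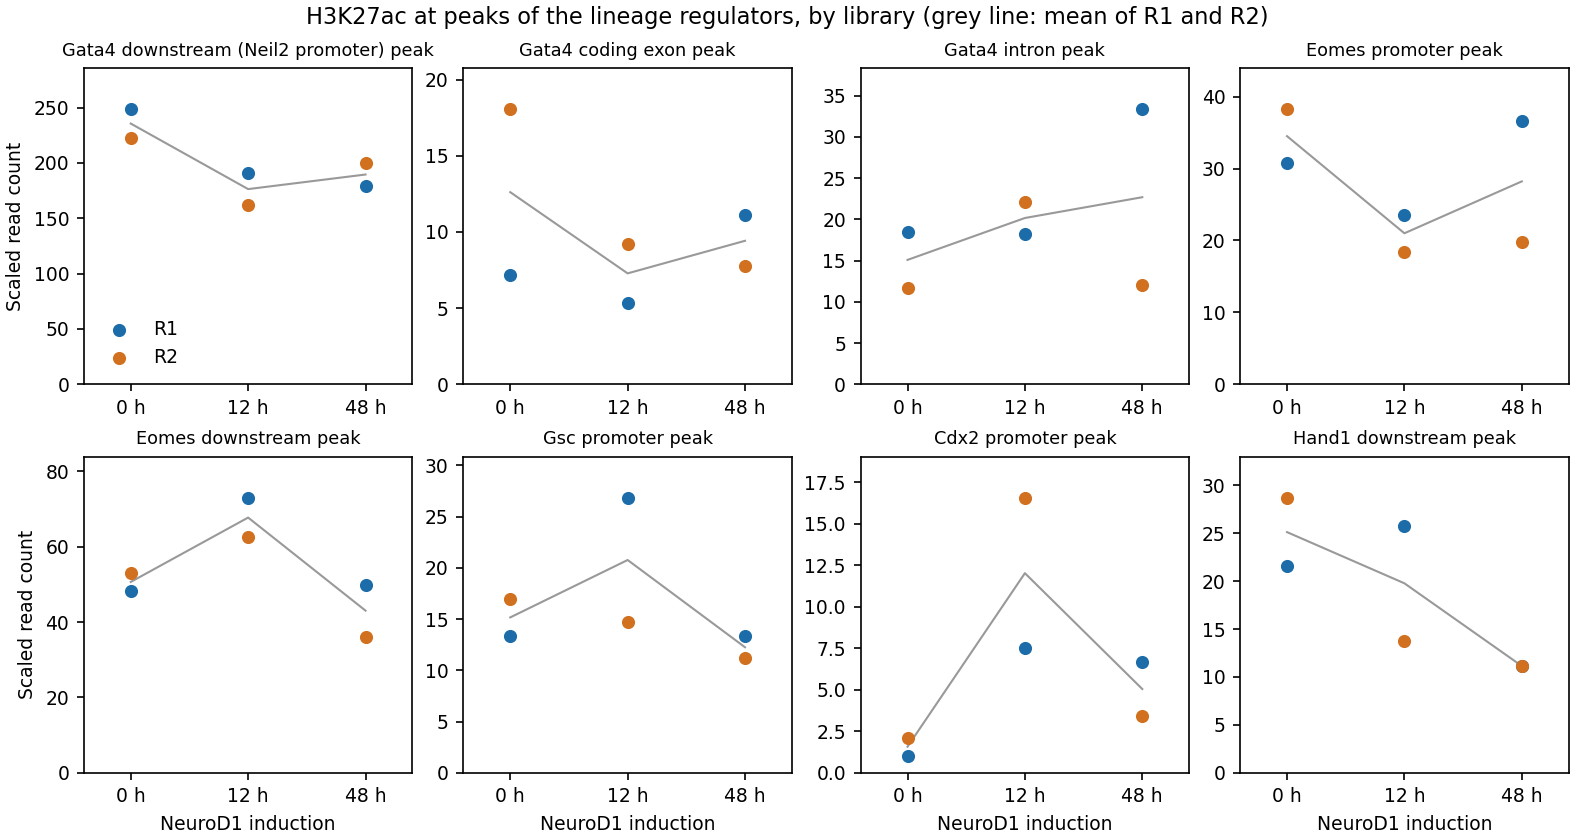
Scaled read count of each of the 8 peaks (vertical axis from 0, reads scaled to the mean library total) at 0 h, 12 h and 48 h, with R1 in blue, R2 in orange and their mean as a grey line. The Cdx2 promoter peak has at most 2.12 scaled reads in the 0 h libraries and 7.51 and 16.6 in the 12 h libraries.

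Cdx2, the trophectoderm regulator, carried the change that passed. Its promoter peak held 1 and 2 reads before induction (R1 and R2), 7 and 18 after 12 h and 6 and 4 after 48 h. Every 12 h library lay above every other library, and both 0 h libraries below all others. From 3 reads at 0 h to 25 at 12 h the ratio of scaled reads was 7.91, with a 95% interval for counting error of 2.41 to 40.9. The fitted log2 fold change was 2.87 ± 0.84 (SE), adjusted p 0.022. The region is in the merged set because a peak was called there in at least 1 sample, which the table does not name, so few reads at 0 h beside more at a later time are in part set by that selection. At 48 h, with 10 reads, the ratio to 0 h was 3.10 (0.797 to 17.5) and the adjusted p was 0.32, and from 12 h to 48 h the log2 change was -1.30 ± 0.67 (adjusted p 0.18). That last difference passed with an offset for GC content (-1.74, adjusted p 0.041) and was -0.60 without 12 h R2 (adjusted p 0.75). The 2 replicates at 12 h differed by more than 2-fold in scaled reads (7.51 and 16.6), and the call was lost without 0 h R1, 0 h R2 or 12 h R2. Those fits leave a lone library at 0 h or 12 h and called fewer of all merged peaks than the main fit. A filter of at least 10 reads in at least 2 libraries removed the peak, and DESeq2 gave it an unadjusted p of 0.014 and no adjusted p.

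Hand1 had fewer reads at 48 h than before induction, a difference that was not called. Its peak, 8072 bp beyond the 3' end of the gene and 11514 bp from the nearest Hand1 TSS (chr11:57820242-57820633), held 21 and 27 reads before induction, 24 and 15 after 12 h and 10 and 13 after 48 h. The 48 h libraries were the 2 lowest. The log2 fold change at 48 h vs 0 h was -1.16 ± 0.43 (SE), with a 95% interval of -2.04 to -0.28 and an adjusted p of 0.073, which missed the threshold. At 12 h vs 0 h the groups overlapped (log2 fold change -0.36, adjusted p 0.55). With an offset for GC content the 48 h vs 0 h difference was -1.15 and the adjusted p 0.032, the only 1 of 12 alternatives that passed. DESeq2 gave -1.10 (adjusted p 0.35). Across the alternatives the difference ran from -1.35 to -0.94.

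Eomes, the T-box factor of the primitive streak and of trophoblast, had 2 peaks that went in opposite directions at 12 h, neither past the threshold. The promoter peak (chr9:118478758-118479267) held 30 and 36 reads before induction, 22 and 20 after 12 h and 33 and 23 after 48 h. Its 12 h libraries lay below the 0 h libraries, with a log2 fold change of -0.72 ± 0.36 (SE) and an adjusted p of 0.18, and the 48 h libraries spanned both. With the GC offset this difference was -0.34 (adjusted p 0.53). The downstream peak (chr9:118488633-118489831, 2501 bp past the 3' end) held 47 and 50 reads before induction, 68 and 68 after 12 h and 45 and 42 after 48 h. Here the 12 h libraries were the highest, with a log2 fold change of 0.42 ± 0.27 at 12 h vs 0 h (adjusted p 0.30) and of -0.66 ± 0.28 at 48 h vs 12 h (adjusted p 0.094). The last difference passed with the GC offset (-0.70, adjusted p 0.029) and without 48 h R1 (-0.90, adjusted p 0.023), 2 of the 12 alternatives run, and was -0.43 without 48 h R2 (adjusted p 0.25). Summed over both peaks, Eomes had 85.1 ± 8.67 scaled reads at 0 h, 88.7 ± 11.0 at 12 h and 71.2 ± 21.7 at 48 h (SD, n = 2).

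Gsc, a homeobox gene of the organizer, had 1 peak over its first part (chr12:104472712-104473204), with 13 and 16 reads before induction, 25 and 16 after 12 h and 12 and 13 after 48 h. The 0 h and 12 h libraries overlapped in scaled reads. The log2 fold changes were 0.43 ± 0.43 (SE) for 12 h vs 0 h (adjusted p 0.50), -0.31 ± 0.46 for 48 h vs 0 h (0.72) and -0.75 ± 0.44 for 48 h vs 12 h (0.24). The 95% interval of the change at 48 h vs 0 h ran from 0.415-fold to 1.56-fold. The fall from 12 h to 48 h passed with the GC offset (-1.17, adjusted p 0.032) and was -0.27 without 12 h R1 (adjusted p 0.82).

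Gata4, the endoderm and heart factor, had 2 peaks of its own that were weak at every time point. The coding exon peak (chr14:63240581-63240997, 4251 bp from the nearest Gata4 TSS) held 7 and 17 reads before induction, 5 and 10 after 12 h and 10 and 9 after 48 h. The intron peak (chr14:63255526-63256024) held 18 and 11 before induction, 17 and 24 after 12 h and 30 and 14 after 48 h. The time points overlapped in both peaks, and their log2 fold changes at 48 h vs 0 h were -0.43 ± 0.57 (SE, adjusted p 0.68) and 0.53 ± 0.46 (adjusted p 0.49). Without 48 h R2 the intron peak passed at 48 h vs 0 h (log2 fold change 1.13, adjusted p 0.040), and without 48 h R1 its sign turned (-0.33, adjusted p 0.72). The peak at the Neil2 promoter (chr14:63192828-63194610) held 242 and 210 reads before induction, 178 and 176 after 12 h and 161 and 233 after 48 h. Its 12 h libraries lay below those at 0 h in scaled reads, with a log2 fold change of -0.42 ± 0.20 and an adjusted p of 0.15. The adjusted p became 0.015 when the 4 libraries of these time points were fitted alone. That fit called 21403 of the 66841 merged peaks, and the main fit 10666. The adjusted p was 0.24 with TMM factors, 0.31 with DESeq2 and 0.19 with the GC offset. Of the 263 scaled reads summed for Gata4 at 0 h, 236 came from this peak, so a sum over the window describes mainly the neighbouring gene.

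**Figure D3:**
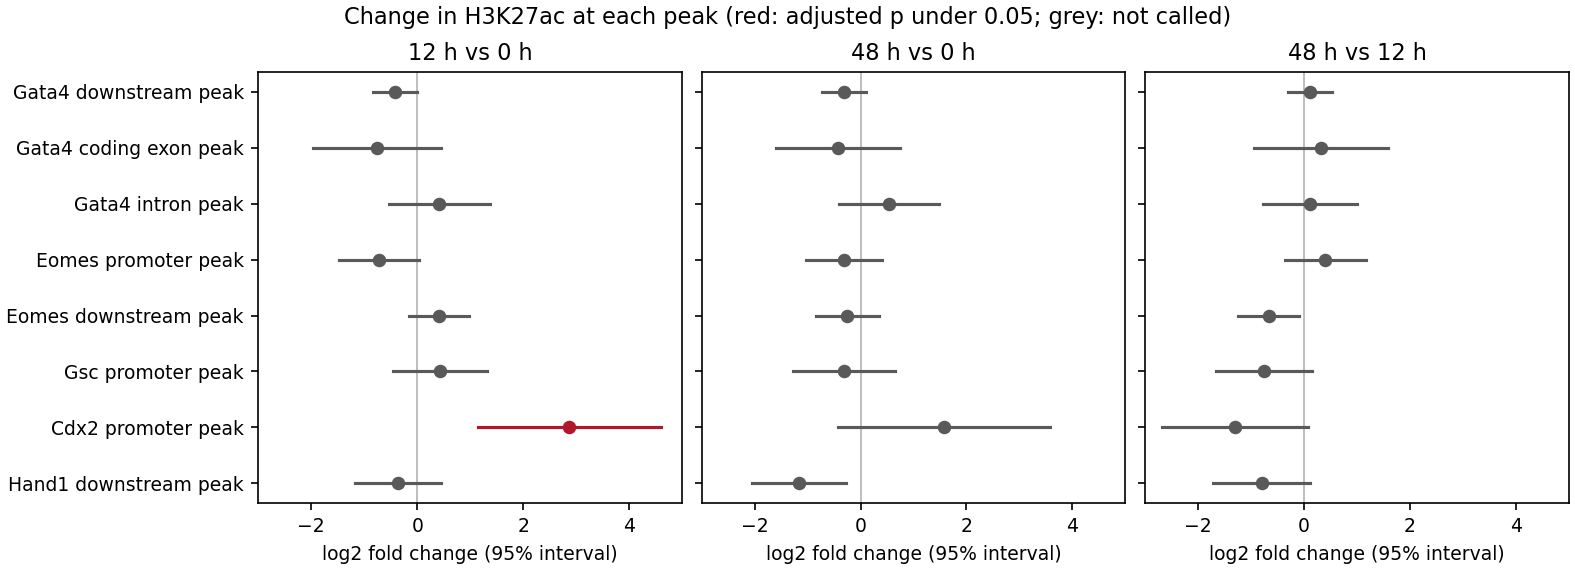
Log2 fold change of each of the 8 peaks with its 95% interval, in 3 panels for 12 h vs 0 h, 48 h vs 0 h and 48 h vs 12 h. The Cdx2 peak at 12 h vs 0 h, in red, is the only one with an adjusted p under 0.05, and its interval runs from 1.14 to 4.60.

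Sums over the peaks of each gene were tested too. For Gsc, Cdx2 and Hand1, with 1 peak each, the sum is that same peak and gives no second result. Of the 5 genes with a peak, 1 passed at 12 h vs 0 h (Cdx2, log2 fold change 2.87, adjusted p 0.023), where 37.3% of the 16175 protein-coding genes with a peak did. The count was 0 of 5 against 11.8% of all genes for 48 h vs 0 h, and 0 of 5 against 46.0% for 48 h vs 12 h (edgeR). The unadjusted p was under 0.05 for 2, 1 and 0 of 5 with edgeR and for 1, 0 and 1 with DESeq2, which called 0 in each. Over all genes with a peak the median log2 fold change of these sums was -0.29 (12 h vs 0 h) and 0.32 (48 h vs 12 h) with library totals, and -0.02 and 0.03 with TMM factors. The median sum at 0 h was 25.1 scaled reads for the 5 genes and 339 for all genes with a peak.

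Widening the window to 50 kb added 25 peaks, of which 23 had another gene as their nearest TSS and 5 lay at the promoter of another gene. The 10 kb limit cut between the Hand1 peak, 8072 bp from the gene, and a weak Eomes peak 11829 bp from it, with 7 and 12 reads at 0 h. No peak was added for Gata6, Sox17, Foxa2, Cdx2 or Myod1. Of the 25, 1 gained and 3 lost acetylation after 12 h, 1 was lower after 48 h than before induction, and 4 rose and 1 fell between 12 h and 48 h. Over all merged peaks the share called in either direction was 16.0%, 14.0% and 19.1% in these comparisons.

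Among these, the broad 4400 bp peak 57709 bp from the Eomes TSS, with that of Golga4 as its nearest TSS, rose and fell again. It held 266 and 185 reads before induction, 427 and 440 after 12 h and 138 and 357 after 48 h. Both 12 h libraries were above all others, with a gain of 0.88 ± 0.24 (log2, SE) after 12 h (adjusted p 0.013) and a change of -0.89 ± 0.23 from 12 h to 48 h (adjusted p 0.011). The replicates at 48 h were 153 and 307 scaled reads, so they differed by 2-fold. The 48 h vs 0 h difference was -0.02, and it ran from -0.62 without 48 h R2, where it passed (adjusted p 0.0050), to 0.39 without 48 h R1 (adjusted p 0.056). The 12 h gain was lost without 0 h R2, 12 h R1 or 12 h R2, and the later fall without either 12 h library. Fewer of all merged peaks passed in those fits too. At Gsc, a peak 38745 bp from the TSS and nearest to Serpina3n held 107 and 111 reads before induction, 77 and 90 after 12 h and 35 and 76 after 48 h, and fell by 1.10 ± 0.27 on the log2 scale at 48 h vs 0 h (adjusted p 0.0062). That call was lost without 0 h R2, where fewer of all merged peaks passed too.

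Promoters of 2 neighbouring genes were called with lower acetylation at 12 h than before induction. The Golga4 promoter, 27599 bp from the Eomes TSS, had 183 and 168 reads before induction, 87 and 90 after 12 h and 187 and 141 after 48 h (log2 fold change -1.06 at 12 h vs 0 h, adjusted p 0.0050). The Acbd3 promoter near Mixl1 had 284 and 334, then 163 and 201, then 427 and 359 (-0.84 at 12 h vs 0 h, adjusted p 0.0075). Both fell at 12 h and rose again at 48 h. Mean scaled reads at the Sap30l, Fdft1 and Neil2 promoters were lowest at 12 h too, without a call against 0 h. Sums over all genes with a peak shifted the same way with library totals. Their median log2 fold change was -0.29 from 0 h to 12 h, then 0.32 from 12 h to 48 h. TMM factors brought these medians to -0.02 and 0.03. The Golga4 and Acbd3 peaks still fell with TMM factors, by -0.99 (adjusted p 0.0084) and -0.78 (adjusted p 0.016). GC content was 64.2% at Golga4 and 55.5% at Acbd3, and with the GC offset their 12 h falls were -0.64 (adjusted p 0.014) and -0.63 (adjusted p 0.0032). Leaving out any 1 of the 0 h and 12 h libraries ended the call at Golga4, and leaving out 0 h R2 or either 12 h library ended that at Acbd3. Each of these fits called fewer of all merged peaks at 12 h vs 0 h than the main fit. The third loss at 12 h was a peak 47722 bp from the nearest Gata4 TSS, close to Fdft1, at -0.75 (adjusted p 0.030), a call that was not made by DESeq2 (0.080) or without any 1 of the 0 h and 12 h libraries (0.080 to 0.40).

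**Figure D4:**
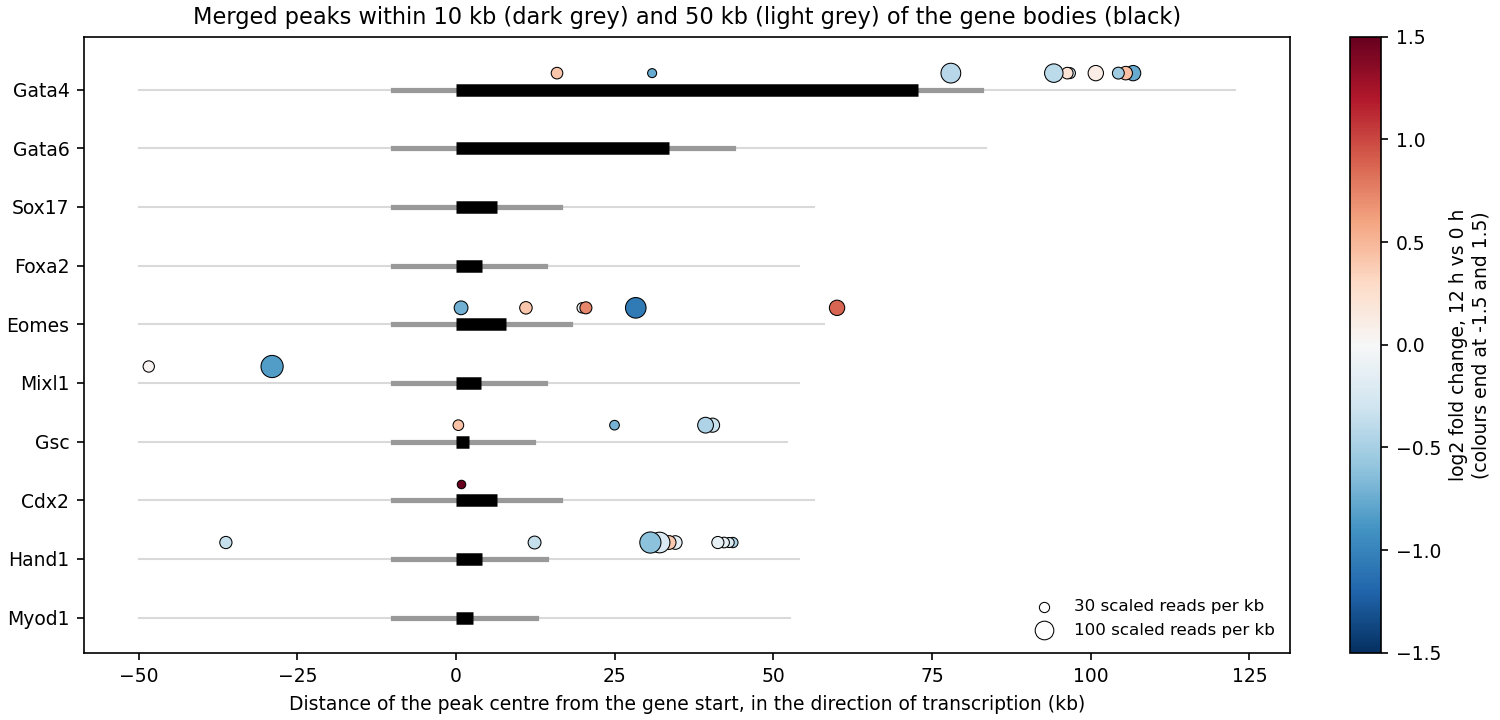
Position of every merged peak in the 50 kb windows, as distance of the peak centre from the gene start in the direction of transcription, with gene bodies in black, 10 kb flanks in dark grey and 50 kb flanks in light grey. Circle area gives the mean scaled reads per kb and colour the log2 fold change at 12 h vs 0 h. Gata6, Sox17, Foxa2 and Myod1 have no circle, and Mixl1 has circles only beyond 10 kb.

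Among further regulators of the same lineages, 1 gained acetylation at 48 h vs 0 h and 3 lost it, counted on gene sums, where 11.8% of all genes with a peak were called in either direction. Of 14 further mesoderm genes, 9 had a peak, and at 48 h vs 0 h 0 gained and 1 lost acetylation, Mesp2, a somite segmentation factor (-0.83 ± 0.22 SE, edgeR adjusted p 0.032). None of the 3 peaks summed for Mesp2 was a promoter peak of that gene. Of 10 further endoderm genes 4 had a peak and 0 passed at 48 h vs 0 h with edgeR (0 of 4 at an unadjusted p under 0.05) or DESeq2. Of 8 further trophoblast genes 5 had a peak, and 2 lost acetylation, Tfap2c (-0.97 ± 0.13, adjusted p 0.0010) and Tead4 (-0.58 ± 0.14, adjusted p 0.022), which acts upstream of Cdx2 in trophectoderm. Of 6 further muscle genes 3 had a peak and 1 gained, Pax3, a factor of muscle precursors and of the dorsal neural tube, from 21.6 and 22.3 scaled reads at 0 h to 109 and 73.9 at 48 h (2.04 ± 0.32, adjusted p 0.0025). These counts were the same with TMM factors and with DESeq2. At 12 h vs 0 h 37.3% of all genes with a peak were called, 1153 with a gain and 4884 with a loss. Gains and losses were then 1 and 2 for mesoderm, 1 and 2 for endoderm, 1 and 1 for trophoblast and 0 and 1 for muscle. With TMM factors they were 1 and 1, 1 and 1, 1 and 1, and 1 and 0. That fit called 2571 of the 16175 genes with a peak, 1887 with a gain and 684 with a loss.

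Neuronal genes, measured the same way, gave 11 with a peak of 12, of which 7 gained at 48 h vs 0 h and 0 lost. Of all genes with a peak, 11.8% were called in either direction. The list was chosen with earlier results of these data known, so its gains are no independent test. The largest gains were at Ebf2 (3.26), Neurod4 (2.62), Nhlh1 (2.17) and Ebf3 (2.06 on the log2 scale). The median log2 fold change at 48 h vs 0 h was 2.04 for the neuronal genes with a peak, -0.27 for the 5 lineage regulators and 0.03 for all genes with a peak. Stem cell genes were strongly acetylated: all 8 markers of embryonic stem cells had peaks, with a median sum of 3227 scaled reads at 0 h, and 2 of them, Esrrb and Dppa5a, fell at 48 h vs 0 h (1 with TMM factors, 3 with DESeq2). Feeder fibroblast markers had peaks at 4 of 8 genes, and Thy1, Twist2, Prrx1 and Postn had none. Their sum was 390 and 391 scaled reads before induction, 396 and 439 after 12 h and 353 and 407 after 48 h, and of the 4 Col1a2 rose at 48 h vs 0 h (1.38 on the log2 scale, adjusted p 0.011). Col1a1 was at -0.50 (adjusted p 0.051), Col3a1 at 0.33 (0.62) and Lum at -0.43 (0.63), and with TMM factors 1 of the 4 gained and 1 lost. In a bulk ChIP a signal from few cells and a weak signal in many cannot be told apart.

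**Figure D5:**
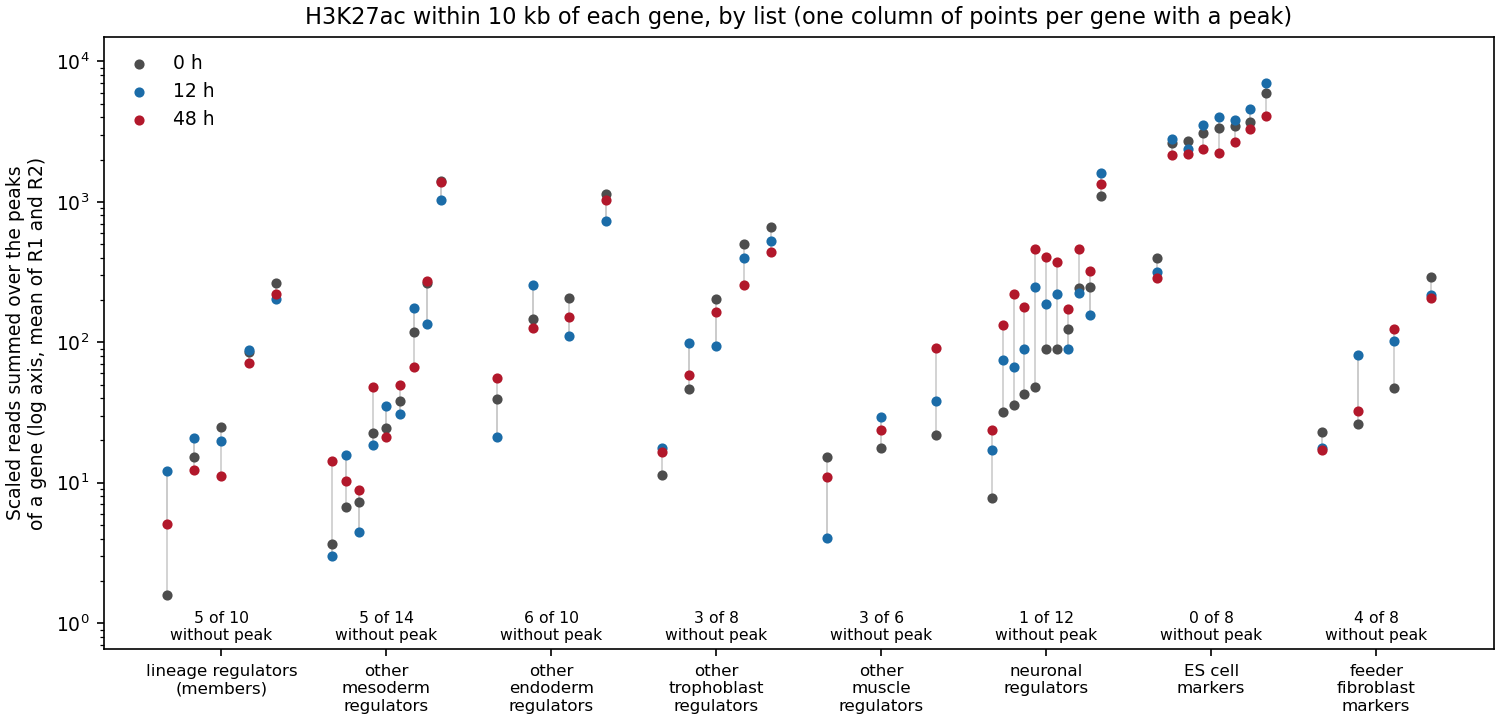
Scaled reads summed over the peaks of each gene (log axis, mean of R1 and R2) at 0 h, 12 h and 48 h, with 1 column of points per gene that has a peak and the number of genes without a peak written under each list. Of the 5 lineage regulators described here Gata4 is highest at 0 h, with 263 scaled reads, of which 236 are from the Neil2 promoter peak. The lowest stem cell marker, Klf4, has 400.1, and Tbx6 (1413), Foxa3 (1132), Tead4 (657) and Tfap2c (499.8) of the further regulators lie above it. Each sum takes in every peak within 10 kb, also any of a neighbouring gene: 7 at Tbx6, 3 at Foxa3, 8 at Tead4, 8 at Tfap2c and 4 at Klf4. Their promoter peaks had 65.5 (Tbx6), 126 (Foxa3), 74.2 (Tead4), 58.2 (Tfap2c) and 78.1 (Klf4) scaled reads per kb.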

How the data were processed

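Data were 6 H3K27ac ChIP-seq libraries of A2lox-NeuroD1 cells (A2Lox in the labels) from 3 time points. Per the labels and the methods of the study, the authors ran Bowtie2 (local mode) against mm10, used SAMtools 0.1.19, called peaks against Input by MACS2, pooled them into one merged set and deposited raw read counts per merged peak made with QuasR. The Input library has no column in the count table and was not used here. The methods state a scaling for library size, which was applied here. Each library had between 6283103 and 8112895 reads in the merged peaks, and replicates differed most at 48 h (chi-square per degree of freedom 5.54, against 1.79 at 0 h and 1.42 at 12 h). Intervals on reads cover counting error only.

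Peaks were matched to GENCODE gene bodies with 10 kb on each side (50 kb as an alternative). The test was the quasi-likelihood test of edgeR 4.0.16 under R 4.3.3 (glmQLFit, glmQLFTest), with 1 model of all 6 libraries, library totals as offset and no filter, over all 66841 peaks. A second fit used sums of reads over the peaks of each of 16175 protein-coding genes. Benjamini-Hochberg adjusted p-values were called under 0.05. The scripts were tested on simulated data. Alternatives were TMM factors, DESeq2 1.42.0, removal of peaks without 10 counts in 2 libraries, the replicate number as a block, the 4 compared libraries alone, an offset on GC content (lowess, span 0.3, pseudocount 8), each library left out in turn (a lone library was assumed to vary like the other time points), and peaks without those at promoters of other genes. Sequence was read from mm10 with pysam 0.24.0, and figures were drawn with matplotlib 3.10.9.

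All 10 genes were named, each with its peaks in the window. Genes of the other lists were given as counts, with values for those that passed at 48 h vs 0 h, at most 4 per list by size of change. The peaks between 10 and 50 kb and the nearest peaks of genes without one were described by distance, and those singled out were picked with their values in view. The genes and lists were chosen with earlier results of these data known.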

Additional observations from a re-analysis of the deposited data

Results flagged for a closer look

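5 peaks between 10 and 50 kb from the lineage regulators differed between their 48 h and their 12 h values, by edgeR's test of 48 h vs 12 h. The Acbd3 promoter near Mixl1 was higher at 48 h by 1.12 on the log2 scale (edgeR adjusted p 0.00088). Near Eomes the Golga4 promoter was higher at 48 h by 0.89 (adjusted p 0.014), and the broad peak 57709 bp from the Eomes TSS was at -0.89 (adjusted p 0.011). A Sap30l promoter peak, 29428 bp from a Hand1 TSS, was higher at 48 h by 0.83 (adjusted p 0.014), with 139 and 139 reads before induction, 80 and 112 after 12 h and 177 and 166 after 48 h. The Fdft1 promoter peak, 34262 bp from a Gata4 TSS, was higher at 48 h by 0.55 (adjusted p 0.035), with 418 and 310, then 260 and 321, then 407 and 456 reads. In 4 of the 5 the peak is the promoter of a neighbouring gene, and 5 of these 25 peaks passed where 19.1% of all merged peaks did. With the GC offset the Sap30l promoter no longer passed (0.42, adjusted p 0.094). Of the 12 alternatives, 7 kept the call at Fdft1, 9 that at Golga4, 9 that at Sap30l and 10 that at the broad peak. Without 12 h R1 or 12 h R2 none of the calls at the Golga4, Sap30l and Fdft1 promoters and the broad peak was made. The call at Acbd3 was made in each such fit. These fits leave a lone library at 12 h, and fewer of all merged peaks passed in them than in the main fit. The replicates at 48 h were the most unequal of the 3 pairs, and the part of that in these differences was not tested.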

How the results depend on the processing

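The call at the Cdx2 peak at 12 h vs 0 h kept its direction under every alternative that gave it a value (log2 fold change 2.17 to 3.42, adjusted p 0.0020 to 0.30). Member peaks called at 12 h vs 0 h numbered 1, and 0 with DESeq2, which gave the Cdx2 peak no adjusted p, 0 with the filter, which removed that peak, 2 with only the 4 libraries compared, 5 in the 50 kb window and 0 to 2 when each library was left out. At 48 h vs 0 h the 0 became 1 with the GC offset, 1 in the 50 kb window and 0 to 1 on leaving out a library. At 48 h vs 12 h the 0 became 3 with the GC offset, 5 in the 50 kb window and 0 to 1 on leaving out a library. For gene sums the 1 at 12 h vs 0 h became 0 with DESeq2 (adjusted p 0.059 for Cdx2), 0 with the filter, 2 with the 4 libraries and 0 to 2 on leaving out a library. The 0 at 48 h vs 0 h became 1 with the GC offset (0 to 0 on leaving out a library), and the 0 at 48 h vs 12 h became 3 with the GC offset and 0 to 1 on leaving out a library. The cause of these changes was otherwise not tested. The number of all 66841 merged peaks called moved with the setting too. At 12 h vs 0 h it was 10666 in the main fit and 21403 with only the 4 libraries. With the GC offset it went from 9365 to 13668 at 48 h vs 0 h and from 12796 to 16712 at 48 h vs 12 h. Sums of all genes went from 1908 to 4023 calls and from 7435 to 5944. With a 0 h or 12 h library left out, fewer of all peaks passed at 12 h vs 0 h. The 50 kb window held 33 peaks. No value called in the main fit changed sign. With R1 or R2 as a replicate block the calls were 1, 0 and 0 of 8, as without it. Same-numbered libraries did not deviate together (correlations -0.04, -0.05 and 0.08), so the numbers were not taken as pairs. Depth limits all of this: 6 of the 8 peaks lie below the median of 30.5 reads.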
